A study of Homo sapiens with 8 samples.

Results

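The miRNAs described here are 8 of the 1887 human miRNAs on the array, the miR-34 family and the miR-192, miR-194 and miR-215 group, which are known as miRNAs that restrain cell division. They were picked out by name, with earlier results of these data known: hsa-miR-34a-5p, hsa-miR-34b-5p, hsa-miR-34b-3p, hsa-miR-34c-5p, hsa-miR-34c-3p, hsa-miR-192-5p, hsa-miR-194-5p and hsa-miR-215. All 4 groups were cultures of PC-3, a human prostate cancer cell line. They were treated for 24 h with DMSO (the solvent), with 60 µM luteolin (a plant flavonoid), with 60 µM gefitinib (an inhibitor of the EGF receptor kinase), or by co-administration of luteolin and gefitinib at 60 µM each. Each treatment had 2 arrays, labelled as biological replicates of this 1 cell line, and all 8 arrays lay on 1 slide and were read in 1 scan.

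In many cell types, DNA damage and other stress raise the transcription of the miR-34 genes. The mature miR-34 strands repress mRNAs for cell cycle and survival factors, such as those of CDK4, CCND1, MET and BCL2. The miRNAs miR-192, miR-194 and miR-215 can slow the cell cycle as well. They are otherwise best known as abundant miRNAs of liver and gut epithelium.

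A miRNA finds its targets mainly through its seed, bases 2 to 8 from the 5′ end. The mature sequences of the members on which the results turn are given 5′ to 3′, with the seed in capitals, so that members with a shared seed and members that an array probe may confuse can be recognised. The RefSeq sequence table used here (GRCh38.p14) matched 7 of the 8 members, all but hsa-miR-34c-5p, which entered no comparison of sequences or seeds.
hsa-miR-34a-5p: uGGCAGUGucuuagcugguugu
hsa-miR-34b-5p: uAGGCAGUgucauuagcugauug
hsa-miR-192-5p: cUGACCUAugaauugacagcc
hsa-miR-215: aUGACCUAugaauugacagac
hsa-miR-194-5p: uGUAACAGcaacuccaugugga

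The seed of hsa-miR-34a-5p, GGCAGUG, was in this table also that of hsa-miR-449a and hsa-miR-449b-5p. That of hsa-miR-34b-5p lay 1 base earlier in the shared letters, AGGCAGU, and was also that of hsa-miR-449c-5p and hsa-miR-2682-5p. The miRNAs hsa-miR-192-5p and hsa-miR-215 shared the seed UGACCUA and differed at 2 of their 21 bases, C1A and C20A (the base of hsa-miR-192-5p, its position from the 5′ end, then the base of hsa-miR-215). How far their probes tell the pair apart was not tested, so their separate values are uncertain. The seed of hsa-miR-194-5p, GUAACAG, was shared with no other miRNA of the table.

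The genes lie at 4 places in the genome (GRCh38.p14). MIR34A gives hsa-miR-34a-5p at chr1:9151735-9151756 on the minus strand, within the host gene MIR34AHG. MIR34B and MIR34C lie 417 bases apart on the plus strand of chromosome 11, with hsa-miR-34b-5p at chr11:111512950-111512972, within the spans of MIR34BHG and BTG4. MIR192 (hsa-miR-192-5p at chr11:64891203-64891223) and MIR194-2 lie 108 bases apart on the minus strand of chromosome 11 within MIR194-2HG. MIR215 (hsa-miR-215 at chr1:220117916-220117936) and MIR194-1 lie side by side on the minus strand of chromosome 1, within the spans of IARS2 and LOC124904515 (strand was not considered for host genes). The mature hsa-miR-194-5p is the same from both hairpins, at chr1:220118206-220118227 and chr11:64891404-64891425, so that the array measured their sum.

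Each array carried 30 spots per miRNA, divided over its probes, and the scanner software gave a total signal per miRNA (a linear intensity with the background subtracted) and whether the miRNA was detected. Signals are given here scaled, that is, after each array was brought to a common 75th percentile over the 365 miRNAs detected on all 8 arrays. Signals of different miRNAs come from different probes and are not compared with each other. The software detected 395 to 481 miRNAs on an array. Log2 signals of the DMSO arrays correlated with each other at r = 0.984, those of the luteolin arrays at 0.973, of the gefitinib arrays at 0.997 and of the co-administration arrays at 0.991. The squared difference between the gefitinib arrays was on average 1.03 times that given by the software's own error, against 2.45 to 9.93 times in the other groups. The labels call the gefitinib arrays biological replicates, but with so small a difference they may not come from 2 separate cultures, and the SD of gefitinib values given with n = 2 may then be technical. Counting them as 1 sample lowered the miRNAs called among the 480 tested to between 1 and 28 per comparison, and 0 of them were members. Of 5 epithelial marker miRNAs, hsa-miR-200a-3p and hsa-miR-200b-3p were detected on all 8 arrays and hsa-miR-205-5p on 6, whereas hsa-miR-200c-3p and hsa-miR-141-3p were detected on 0. All 5 markers of stroma or muscle, hsa-miR-122-5p of liver (which serum can carry), and the neural hsa-miR-124-3p were detected on 0 arrays, as were 3 of 4 blood markers. The exceptions were the blood marker hsa-miR-142-3p on 1 array and the neural marker hsa-miR-9-5p on 8.

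The 8 members fell into 3 levels of detection. The miRNAs hsa-miR-34a-5p, hsa-miR-192-5p and hsa-miR-194-5p were detected on all 8 arrays, as were 19.3% of all miRNAs. hsa-miR-215 was detected on 4 arrays: DMSO replicate 2, luteolin replicate 2 and both gefitinib arrays. The other 4, which are both arms of miR-34b and both arms of miR-34c, were detected on 0 of 8 arrays, as were 72.3% of all miRNAs (1365 of 1887).

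**Figure D1:**
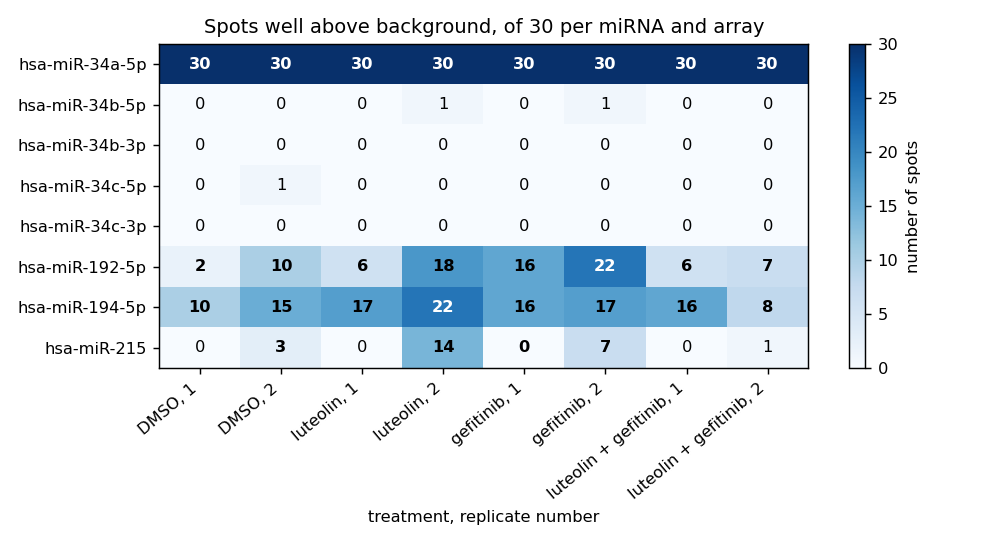
Number of spots well above background, of 30, for each of the 8 members (rows) on each array (columns, by treatment and replicate number). Bold numbers mark arrays on which the software detected the miRNA. hsa-miR-34a-5p had 30 of 30 spots above background on every array, hsa-miR-192-5p and hsa-miR-194-5p had 2 to 22, and the miR-34b and miR-34c arms had 0 or 1.

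hsa-miR-34a-5p was the only member of the miR-34 family that was detected. All 240 of its spots over the 8 arrays were well above background. Its scaled signal was 11.2 and 18.5 on the 2 DMSO arrays, a mean of 14.9 ± 5.20 (SD, n = 2). It was 10.9 and 18.4 after luteolin (14.7 ± 5.29, SD, n = 2). The luteolin and DMSO arrays thus covered nearly the same range. It was 12.5 and 15.4 after gefitinib (13.9 ± 2.09, SD, n = 2). It was 12.2 and 15.8 after co-administration (14.0 ± 2.53, SD, n = 2). The 4 groups overlapped, with both arrays of the gefitinib and co-administration groups between the 2 DMSO arrays. In order of their means the groups ran from DMSO through luteolin and co-administration to gefitinib, and no neighbours in this order differed beyond their spread.

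**Figure D2:**
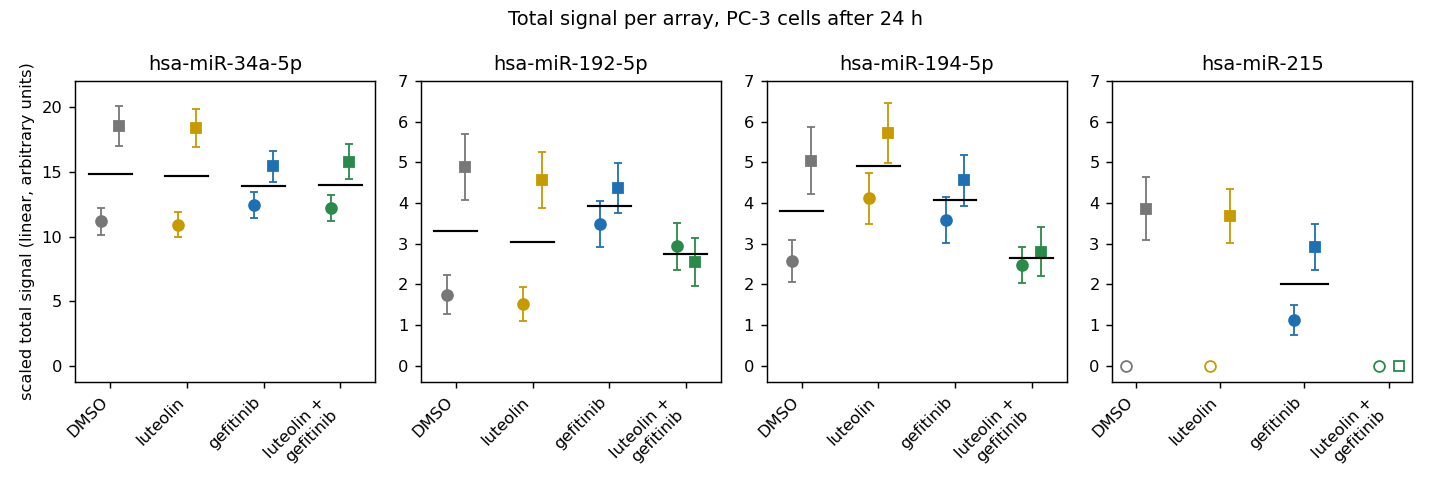
Scaled total signal (linear scale, arbitrary units) of the 4 members detected on at least 1 array, by treatment. Circles are replicate 1 and squares replicate 2, error bars are the scanner software's error of the single array, black lines are group means where both arrays detected the miRNA, and open symbols drawn at 0 are arrays on which it was not detected. The panels have their own vertical scales and are not to be compared with each other. The groups of hsa-miR-34a-5p overlap between 10.9 and 18.5.

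Against DMSO, the fold change of hsa-miR-34a-5p was 0.985 after luteolin, with a 95% confidence interval of 0.528 to 1.84. It was 0.963 (0.517 to 1.80) after gefitinib and 0.965 (0.518 to 1.80) after co-administration. The corresponding log2 fold changes were -0.02, -0.05 and -0.05, each with a standard error of 0.36, and limma's adjusted p was 1, 0.952 and 0.962. A difference of 2-fold in either direction therefore lay outside all 3 intervals, and differences within the intervals could not be told from none. This limit rests on all of the arrays, because leaving out any 1 array of the groups compared carried at least 1 limit past 2-fold. The lowest limit was then 0.343 (gefitinib against DMSO, without gefitinib replicate 2) and the highest 2.70 (the same comparison, without gefitinib replicate 1). Because all groups share 1 fit, arrays outside a comparison mattered as well. Luteolin against DMSO passed 2-fold also without any 1 gefitinib or co-administration array. Gefitinib and co-administration against DMSO stayed within 2-fold without either luteolin array. Without scaling, the interval for gefitinib against DMSO was 0.726 to 2.13 around a fold of 1.24. Over all 7 comparisons the log2 fold change of hsa-miR-34a-5p lay between -0.05 and 0.02.

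The difference within groups was larger than that between them for hsa-miR-34a-5p. The higher array of a group exceeded the lower by 1.66-fold for DMSO, 1.69-fold for luteolin, 1.24-fold for gefitinib and 1.29-fold for co-administration, and the higher one was replicate 2 in all 4 groups. Both of its probes gave this difference alike: the ratio of one probe to the other lay between 0.753 and 0.787 over the arrays. On the log2 scale that ratio had an SD of 0.0251, against 0.309 for the total signal. The software's own error was 7.87% to 9.19% of the signal per array. Of the 365 miRNAs detected on all arrays, 101 were higher on replicate 2 in all 4 groups and 30 were higher on replicate 1 in all 4. The labels do not say whether a replicate number marks a shared culture day or batch, and the part of such a batch in these values was not tested. A fit with the replicate number as a block was run as an alternative. In it the interval of hsa-miR-34a-5p for luteolin against DMSO was 0.724 to 1.34, narrower than the 0.528 to 1.84 of the main fit. The intervals for gefitinib and co-administration against DMSO narrowed as well. Set against the DMSO array of the same number, hsa-miR-34a-5p after gefitinib was at 1.12 times that array for replicate 1 and 0.832 times for replicate 2. After co-administration these ratios were 1.09 and 0.852, and after luteolin 0.977 and 0.993.

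The miRNAs whose log2 signal followed that of hsa-miR-34a-5p most closely over the 8 arrays were hsa-miR-551b-3p (Pearson's r = 0.99), hsa-miR-28-5p (0.981) and hsa-miR-10b-5p (0.963), the highest of 364 compared. hsa-miR-551b-3p had a scaled signal of 25.2 and 38.8 in DMSO, 23.7 and 39.6 in luteolin, 28.6 and 35.3 in gefitinib, and 27.9 and 34.9 in co-administration. All 3 were higher on replicate 2 in every group, as hsa-miR-34a-5p was. These points share arrays and scaling, and the values are a description of 8 arrays.

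The arms of miR-34b and miR-34c, which the bicistronic gene pair on chromosome 11 encodes, gave hardly any spot above background: 2 of 240 for hsa-miR-34b-5p, 1 of 240 for hsa-miR-34c-5p, and 0 of 240 for hsa-miR-34b-3p and for hsa-miR-34c-3p. The probes of hsa-miR-34b-5p nevertheless read above 0 on every array, 16 of 16 values, with an unscaled signal between 0.185 and 1.10. Every probe lay above 0 on every array in 5.05% of the miRNAs detected nowhere (69 of 1365). The probes of the other 3 arms read mostly below 0, with 2 of 16 values above 0 for hsa-miR-34b-3p, 2 of 16 for hsa-miR-34c-5p and 12 of 32 for hsa-miR-34c-3p. The sign went by probe for hsa-miR-34c-3p: of its 4 probes, 2 read below 0 on all 8 arrays and 1 above 0 on 7 of 8. The scaled sum over both probes of hsa-miR-34b-5p was 0.803 and 1.59 in DMSO, 0.952 and 1.80 in luteolin, 0.955 and 1.44 in gefitinib, and 1.24 and 1.55 in co-administration. These groups overlapped. The scaled sum over the 4 probes of hsa-miR-34c-3p was -0.29 and -0.46 in DMSO, -0.43 and -0.58 in luteolin, 0.251 and 0.214 in gefitinib, and -0.20 and -0.070 in co-administration. Both gefitinib arrays lay above the other 6 here, at an unscaled error of 0.190 to 0.242 per probe. For hsa-miR-34c-5p both gefitinib arrays (-0.073 and -0.20) also lay above the other 6 (-0.40 to -0.23), all of them below 0. For hsa-miR-34b-3p both co-administration arrays (-0.21 and -0.47) lay below the luteolin arrays (-0.11 and -0.068) and the gefitinib arrays (0.037 and -0.077), while the DMSO arrays (-0.40 and 0.016) overlapped with all 3 of these groups. No test was made of these sums, since none of the 4 arms was detected. The non-members of the table that share a seed with hsa-miR-34a-5p or hsa-miR-34b-5p (hsa-miR-449a, hsa-miR-449b-5p, hsa-miR-449c-5p and hsa-miR-2682-5p) were detected on 0 arrays, and so were the opposite strands hsa-miR-34a-3p, hsa-miR-192-3p and hsa-miR-194-3p. These are statements about the detection limit of the array and not about absence.

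hsa-miR-192-5p was detected on all 8 arrays but close to background, with 2 to 22 of its 30 spots well above it (median 8.5). Its scaled signal was 1.74 and 4.89 in DMSO, 1.52 and 4.55 in luteolin, 3.48 and 4.37 in gefitinib, and 2.94 and 2.55 in co-administration. The DMSO and luteolin groups each spanned nearly the whole range, and all values of the other 2 groups lay within the range of the DMSO arrays. Against DMSO the fold change was 0.901 after luteolin (95% confidence interval 0.286 to 2.84), 1.34 after gefitinib (0.424 to 4.21) and 0.938 after co-administration (0.298 to 2.95). The log2 standard error was 0.67 and limma's adjusted p was 1, 0.793 and 0.963. These intervals leave changes of well over 2-fold in either direction undecided. The directions rested on single arrays: the log2 fold change was -0.15 for luteolin, but -0.90 without DMSO replicate 1, 0.59 without DMSO replicate 2, 0.64 without luteolin replicate 1 and -0.94 without luteolin replicate 2. For gefitinib it was 0.42, but -0.33 without DMSO replicate 1 and 1.16 without DMSO replicate 2. For co-administration it was -0.09, but -0.84 and 0.65 without these DMSO arrays and 0.01 without co-administration replicate 2.

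hsa-miR-194-5p, the partner of miR-192 and of miR-215 in their 2 gene clusters, had 8 to 22 of 30 spots well above background. Its scaled signal was 2.57 and 5.04 in DMSO, 4.12 and 5.72 in luteolin, 3.59 and 4.56 in gefitinib, and 2.47 and 2.80 in co-administration. Both co-administration arrays lay below both luteolin arrays and both gefitinib arrays, while they overlapped with DMSO. Against DMSO the log2 fold change was 0.43 after luteolin, 0.17 after gefitinib and -0.45 after co-administration, each with a standard error of 0.36. Limma's adjusted p was 0.887, 0.842 and 0.502. Each of these directions turned when 1 array was left out: without DMSO replicate 1 the values were -0.06 for luteolin and -0.32 for gefitinib, without DMSO replicate 2 the value for co-administration was 0.03, and without gefitinib replicate 2 that for gefitinib was -0.01. Co-administration differed from luteolin alone by a log2 fold change of -0.88 (0.542-fold, 95% confidence interval 0.291 to 1.01), the lowest unadjusted p of any member (0.0523), with an adjusted p of 0.328 by limma. From gefitinib alone it differed by -0.62 (0.651-fold, 0.350 to 1.21, adjusted p 0.668 by limma). The interaction, which is the log2 effect of both drugs minus the sum of the single effects, was -1.05 with a standard error of 0.51 and an adjusted p of 0.586 by limma. It was -0.57 without DMSO replicate 1 and -1.54 without DMSO replicate 2. For co-administration against luteolin the unadjusted p was under 0.05 in 6 of 22 alternatives, for co-administration against gefitinib in 3 of 22 and for the interaction in 3 of 20.

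**Figure D3:**
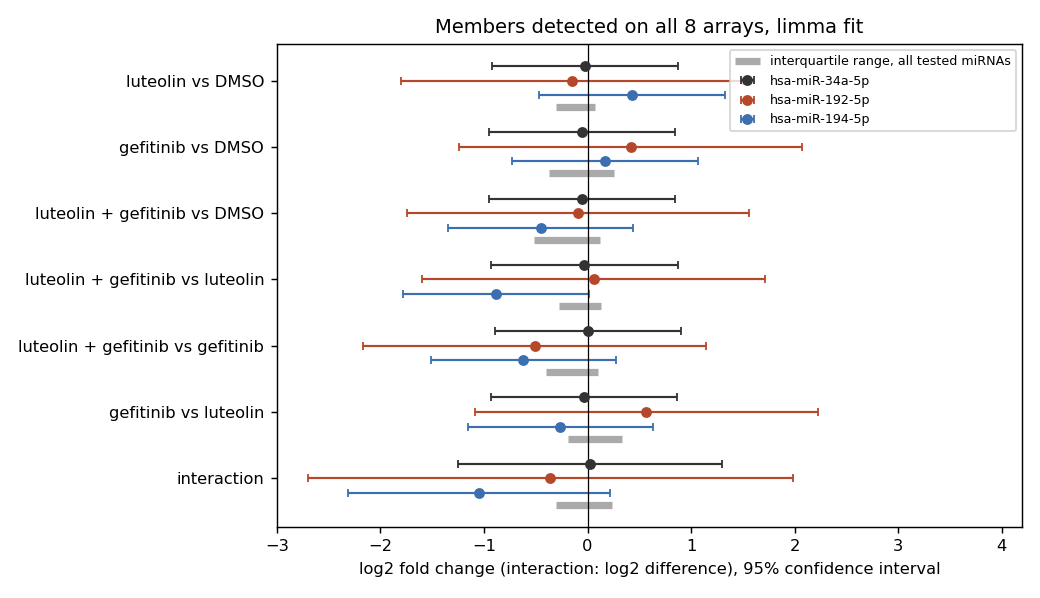
Log2 fold change (points) with the 95% confidence interval of limma (lines) for the 3 members detected on all 8 arrays, in the 7 comparisons. The grey bars span the interquartile range of the fold changes of all 480 miRNAs tested. Every interval includes 0, and the closest to leaving it out is hsa-miR-194-5p in co-administration against luteolin, at -0.88.

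The total signals of these weakly detected miRNAs depended on which of their 2 probes the software counted. The total equalled the sum of the counted probes, within 0.2% plus 0.002 signal units, for all 480 miRNAs tested, and a probe was counted where its signal exceeded 3 times its own error. For hsa-miR-192-5p only 1 probe was counted on DMSO replicate 1, luteolin replicate 1 and co-administration replicate 2, and both were counted elsewhere. For hsa-miR-194-5p only 1 was counted on DMSO replicate 1 and on both co-administration arrays. The uncounted probes were not at 0: that of hsa-miR-194-5p read 0.985 unscaled on DMSO replicate 1, and 1.23 and 0.977 on the co-administration arrays, against 1.33 to 1.99 where it was counted.

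The values were therefore also summed over both probes on every array, a summary chosen after seeing the data. For hsa-miR-194-5p this gave a scaled sum of 4.33 ± 1.01 in DMSO, 4.92 ± 1.13 in luteolin, 4.08 ± 0.692 in gefitinib and 3.82 ± 0.344 in co-administration (mean ± SD, n = 2 each). The log2 fold change of co-administration against luteolin was then -0.35 (adjusted p 0.568 by limma), that against gefitinib was -0.09 (0.966) and the interaction was -0.27 (0.988). For gefitinib against DMSO it was -0.08 (0.877), where the total signal gave 0.17. Over all alternatives the adjusted p of these 4 comparisons ranged from 0.159, 0.18, 0.236 and 0.346 up to 1. On the single probe of hsa-miR-194-5p that was counted on all 8 arrays, the scaled signal was 2.64 and 3.64 in luteolin and 2.47 and 2.80 in co-administration, so that these groups overlapped. On the sum, both co-administration arrays (3.58 and 4.07) still lay below both luteolin arrays (4.12 and 5.72), by less than the spread within luteolin, and overlapped with gefitinib (3.59 and 4.56).

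For hsa-miR-192-5p the sum over both probes was 2.92 and 4.89 in DMSO, 2.59 and 4.55 in luteolin, 3.48 and 4.37 in gefitinib, and 2.94 and 3.99 in co-administration. The ratio of the higher to the lower replicate became 1.68 in DMSO and 1.76 in luteolin, where the total signal gave 2.81 and 3.00. The groups still overlapped, and the log2 fold changes against DMSO were -0.14, 0.05 and -0.14 for luteolin, gefitinib and co-administration, with adjusted p of 0.941, 0.948 and 0.824 by limma. Over all alternatives these ranged from 0.66, 0.489 and 0.516 up to 1.

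**Figure D4:**
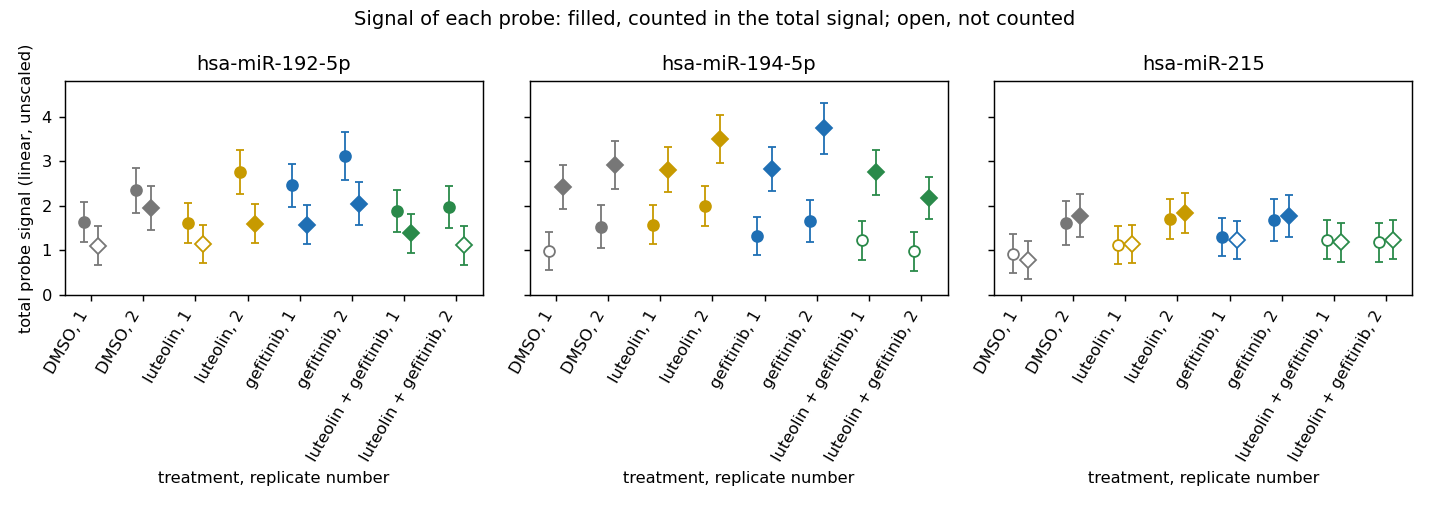
Unscaled signal (linear) of each of the 2 probes of hsa-miR-192-5p, hsa-miR-194-5p and hsa-miR-215 on every array. Circles and diamonds are the 2 probes, filled symbols were counted in the total signal and open ones were not, and error bars are the software's error of the probe. Uncounted probes lie between 0.792 and 1.24, just under the counted ones.

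hsa-miR-215, which shares its seed with hsa-miR-192-5p, lay at the limit of detection. Its scaled total signal was 3.86 on DMSO replicate 2 and 3.69 on luteolin replicate 2, and it was not detected on the other array of either group. In gefitinib it was 1.12, from 1 counted probe and with 0 spots well above background, and 2.92. It was detected on neither co-administration array. Its probes all the same read above 0 on every array, 16 of 16 values, between 0.792 and 1.84 unscaled. The scaled sum over both probes was 1.83 and 3.86 in DMSO, 2.12 and 3.69 in luteolin, 2.19 and 2.92 in gefitinib, and 2.18 and 3.13 in co-administration. All 4 groups overlapped on this sum, and the co-administration arrays, where the miRNA was not detected, lay within the range of DMSO. No fold change is given, since the undetected arrays have no measured total. No p is given either, because hsa-miR-215 passed the filter through the gefitinib group alone and 4 of its 8 values would be the floor.

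The 3 members detected on all 8 arrays gave 21 tests over the 7 comparisons, and 0 of them were called at an adjusted p under 0.05 by limma. In this fit 0 of the 21 had an unadjusted p under 0.05, but 14 of 348 values did under the alternatives, all of them for hsa-miR-194-5p. The alternatives were followed for 16 of the 21 fold changes: all 7 of hsa-miR-34a-5p, the 3 of hsa-miR-192-5p against DMSO, and those of hsa-miR-194-5p other than gefitinib against luteolin. Among all 480 miRNAs tested, 2.08% were called for luteolin against DMSO, 12.1% for gefitinib against DMSO and 12.1% for co-administration against DMSO. The share was 1.88% for co-administration against luteolin, 4.58% for co-administration against gefitinib, 5.00% for gefitinib against luteolin and 3.33% for the interaction. With shares of this size, 0 calls among 3 members do not set them apart from the other miRNAs. The comparisons with DMSO share its 2 arrays.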

How the data were processed

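Total RNA labelled with Cy3 was hybridised to 1-colour Agilent miRNA arrays, and the authors extracted every array by itself with Agilent Feature Extraction 10.7.3.1. The deposited signal intensity is linear and background-subtracted, and arrays were not normalized to each other. The total signal per miRNA was used here, which holds a placeholder of 0.1 where a miRNA was not detected. No array was left out, and 0 spots were saturated. Arrays were scaled to a common 75th percentile, taken over the 365 miRNAs detected on every array. A floor of 0.609 was set before log2 transformation. Tests ran on 480 miRNAs, those with detection on both arrays of 1 or more groups. All 4 groups entered a single model in limma 3.58.1 (R 4.3.3), which left 4 residual degrees of freedom beside a prior worth 1.66. The two-sided p-values received the Benjamini-Hochberg adjustment across the 480 miRNAs per comparison, and an adjusted p under 0.05 was a call. Exact permutation of 2 arrays against 2 reaches no two-sided p below 0.333 and was not used. The number of arrays limits the precision.

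The members and the list of cell type markers were chosen with earlier results of these data known. Further lists of miRNAs are not reported here. Named beside them were the other arms of their hairpins, miRNAs with a shared seed, and the 3 miRNAs whose log2 signal correlated best with each member detected on all arrays. For hsa-miR-192-5p these were hsa-let-7i-5p, hsa-miR-30b-5p and hsa-miR-195-5p (r = 0.954, 0.943 and 0.933), and for hsa-miR-194-5p hsa-miR-26a-5p, hsa-miR-361-3p and hsa-miR-103a-3p (0.977, 0.867 and 0.836). Sequences and gene positions were taken from RefSeq tables, and figures were drawn with matplotlib 3.10.9. Alternatives changed the scaling, the summary of spots, the source table, the background correction, the filter, the floor, the test, the samples in the fit, the pairing and the arrays included.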

Additional observations from a re-analysis of the deposited data

How the results depend on the processing

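Under 22 alternatives, 21 of them planned and 1 (the sum over all probes) chosen after seeing the data, 0 of 348 log2 fold changes were called, from 16 fold changes of the 3 members detected on all 8 arrays. Of all miRNAs tested, between 0 and 91 were called per comparison under these alternatives, a share of 0% to 19.0%. With shares of this size, 0 calls among 3 members do not set them apart from the other miRNAs. The lowest adjusted p was 0.159, for hsa-miR-194-5p in co-administration against luteolin with the replicate number as a block. Of the 348, 49 changed sign, none of them called and none above 0.65 in size. Scaling to the 75th percentile over all miRNAs was not run, since that percentile was the undetected value of 0.1 on 5 of 8 arrays.

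Without scaling, the median of all tested miRNAs moved from -0.105 to 0.257 for gefitinib against DMSO. There hsa-miR-34a-5p had 0.13 for luteolin against DMSO, 0.31 for gefitinib against DMSO, -0.34 for co-administration against gefitinib, 0.18 for gefitinib against luteolin and -0.47 for the interaction, and hsa-miR-192-5p had 0.00 for luteolin against DMSO. With quantile normalization hsa-miR-34a-5p had 0.07 for luteolin and 0.02 for co-administration against DMSO, and for co-administration hsa-miR-192-5p had 0.51 and hsa-miR-194-5p 0.01. With normexp and quantile normalization hsa-miR-34a-5p had 0.05 for luteolin, 0.01 for co-administration and 0.00 for the interaction. There hsa-miR-192-5p had 0.02 for luteolin and 0.00 for co-administration, and hsa-miR-194-5p had 0.01 for co-administration against DMSO and 0.00 for co-administration against gefitinib. From the mean processed signal and from the series table, gefitinib against DMSO was -0.01 for hsa-miR-192-5p and -0.11 for hsa-miR-194-5p, and co-administration against gefitinib was -0.01 for hsa-miR-34a-5p. The sum over all probes gave -0.08 for hsa-miR-194-5p in gefitinib against DMSO. The interaction of hsa-miR-194-5p was -1.54 without scaling, -0.29 from the mean processed signal, -0.27 from the sum over all probes and -0.05 with normexp and quantile normalization.

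Leaving out 1 array at a time, hsa-miR-34a-5p ranged from -0.40 to 0.35 for luteolin, -0.42 to 0.31 for gefitinib and -0.42 to 0.31 for co-administration against DMSO. It ranged from -0.41 to 0.35 for co-administration against luteolin, -0.18 to 0.19 for co-administration against gefitinib, -0.41 to 0.34 for gefitinib against luteolin and -0.35 to 0.40 for the interaction. Against DMSO, hsa-miR-192-5p ranged from -0.94 to 0.64 for luteolin, -0.33 to 1.16 for gefitinib and -0.84 to 0.65 for co-administration, and hsa-miR-194-5p from -0.06 to 0.92, -0.32 to 0.65 and -0.94 to 0.03. For hsa-miR-194-5p the range was -1.12 to -0.65 for co-administration against luteolin, -0.79 to -0.45 against gefitinib and -1.54 to -0.57 for the interaction. Where this left 1 array in a group, its spread was assumed to be that of the other groups.

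With the replicate number as a block, between 5 and 62 of 480 miRNAs were called per comparison and 0 of them were members, and hsa-miR-194-5p had an unadjusted p of 0.0117 for co-administration against luteolin, 0.04 against gefitinib and 0.022 for the interaction (adjusted p 0.159, 0.274 and 0.264 by limma). The interval for hsa-miR-34a-5p narrowed to 0.724 to 1.34 for luteolin against DMSO, 0.708 to 1.31 for gefitinib and 0.709 to 1.31 for co-administration. The correlation of the replicate differences was 0.908 between DMSO and luteolin. With co-administration it was 0.409 for DMSO and 0.461 for luteolin. With gefitinib it was -0.135 for DMSO, -0.0932 for luteolin and 0.0652 for co-administration. The main fit did not pair the arrays by number, and whether the numbers mark pairs was not tested. The software's error reached 27.7%, 21.7% and 32.6% of the signal on single arrays for hsa-miR-192-5p, hsa-miR-194-5p and hsa-miR-215, and the arms of miR-34b and miR-34c lay under the detection limit.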

Other observations

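Differences in the number of counted probes were not particular to the members. Of the 365 miRNAs detected on all 8 arrays, the number of probes counted in the total differed between the 2 arrays of a group for 27 in DMSO, 30 in luteolin, 9 in gefitinib and 31 in co-administration. For these the median absolute log2 difference of the total between replicates was 0.97, 1.24, 0.382 and 0.806, and on the sum over all probes it was 0.394, 0.802, 0.147 and 0.224. For the miRNAs with equal numbers of counted probes it was 0.296, 0.365, 0.0976 and 0.177 on the total, and 0.296, 0.362, 0.0961 and 0.183 on the sum. The miRNAs with unequal numbers thus differed more between replicates on the sum as well, so the gap on the total is not all due to the counting.

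Over the 8 arrays, the log2 sum over all probes of hsa-miR-34a-5p had a Pearson's r of 0.963 with hsa-miR-192-5p, 0.84 with hsa-miR-194-5p and 0.983 with hsa-miR-215, as a description of arrays that share 1 scaling. On the total signal r was 0.824, 0.64 and 0.816. The last of these rests partly on the floor of 0.609, since hsa-miR-215 was detected on only 4 of 8 arrays and has no measured total on the others. The sums over all probes of all 4 miRNAs were higher on replicate 2 than on replicate 1 in every group.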
